A study of Arabidopsis thaliana with 6 samples.

Results

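The genes described here are 42 nuclear loci of Arabidopsis thaliana that encode subunits and antenna proteins of the photosystems, out of 32140 loci counted in each library. They were taken by locus identifier from a list of LHCA, LHCB, PSA and PSB genes. They fall into 6 photosystem I antenna genes (LHCA), 14 photosystem II antenna genes (LHCB), 12 photosystem I core genes (PSA) and 10 photosystem II core genes (PSB). Photosystem I thus has 18 of the genes and photosystem II has 24, and antenna genes number 20 against 22 core genes. Each locus was represented by its most-read transcript isoform, summed over the libraries, and 8 of the loci had more than 1 isoform.

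The photosystems are pigment-protein complexes of the chloroplast thylakoid membrane that turn absorbed light into electron flow: photosystem II takes electrons from water, and photosystem I passes them on to ferredoxin. Chlorophyll-binding antenna proteins, all encoded in the nucleus, surround a core whose reaction centre proteins are encoded in the plastid. Young seeds of Arabidopsis are green, and both the seed coat and the embryo are known to hold chloroplasts during part of their development. The plastid-encoded subunits were not analysed here.

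RNA was measured in 6 libraries of linearly amplified total RNA from dissected seed tissues of plants grown with 16 h of light, sequenced on the SOLiD platform. The kyp group has 2 libraries, numbered 11 and 12 in their titles, of 2-4 cell embryos from a Landsberg erecta (Ler) mother labelled kyp-2 and a wild-type Columbia (Col0) father. KRYPTONITE (KYP) is the histone H3 lysine 9 methyltransferase, and by these labels the embryos received the mutant allele from the mother alone. One library holds globular embryos and 2 libraries, numbered 7 and 11, hold 2-4 cell embryos, all of these from a wild-type Ler mother and a wild-type Col0 father. All embryo libraries include part of the suspensor. The last library is the seed coat of wild-type Ler seeds at the 2-4 cell embryo stage. The titles of both kyp libraries give the cross as Ler by Col, with kyp in the sample name alone, and kyp library 11 carries the maternal genotype label in 2 versions, kyp-2 and wild type. The 2-4 cell groups are called kyp and WT below.

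Gene read totals ranged from 1448502 in kyp library 11 to 4107227 in kyp library 12. KYP had 44.1 and 40.5 CPM (reads per 1000000 gene reads, after TMM scaling of the totals) in the kyp libraries and 57.1 and 62.6 CPM in the WT libraries. All 13 seed coat marker genes had reads in every embryo library, and their summed level was 4478 CPM in the seed coat library and 4917 to 7775 CPM in the 5 embryo libraries. Among them KLU had 58.4 CPM in the seed coat library and 1085 to 2026 CPM in the 2-4 cell libraries. Most of the 13 went the other way. In seed coat over WT, 9 had a positive log2 fold change and 4 a negative one (median 0.21). In seed coat over globular embryos, 9 were also positive and 4 negative (median 0.78). The part of carried-over seed coat RNA in the embryo libraries was not tested. Of the 6 embryo markers LEC1 and DRN were at 0 reads in the seed coat library and had reads in each embryo library. Ribosomal RNA took 0.804 to 1.80% of reads in 5 libraries and 9.0% in WT library 11. Separate plants are not stated for the libraries of a group, so p-values measure the spread between these libraries. Counting intervals cover counting error only.

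Photosystem and antenna reads were most frequent in the seed coat library and in kyp library 11. The 42 genes took 0.645% of gene reads in kyp library 11, 0.212% in kyp library 12, 0.165% in globular embryos, 0.860% in seed coat, 0.158% in WT library 7 and 0.173% in WT library 11. These shares rest on 9342, 8725, 2931, 16648, 3958 and 6742 reads in the same order. The seed coat library and kyp library 11 stood well above the other 4, which lay close together. In bulk RNA, fewer cells that express these genes and less of their RNA per cell cannot be told apart. All 42 genes had reads in 4 of the libraries, while LHCB1.4 had none in the globular library and LHCA6 none in WT library 7.

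**Figure D1:**
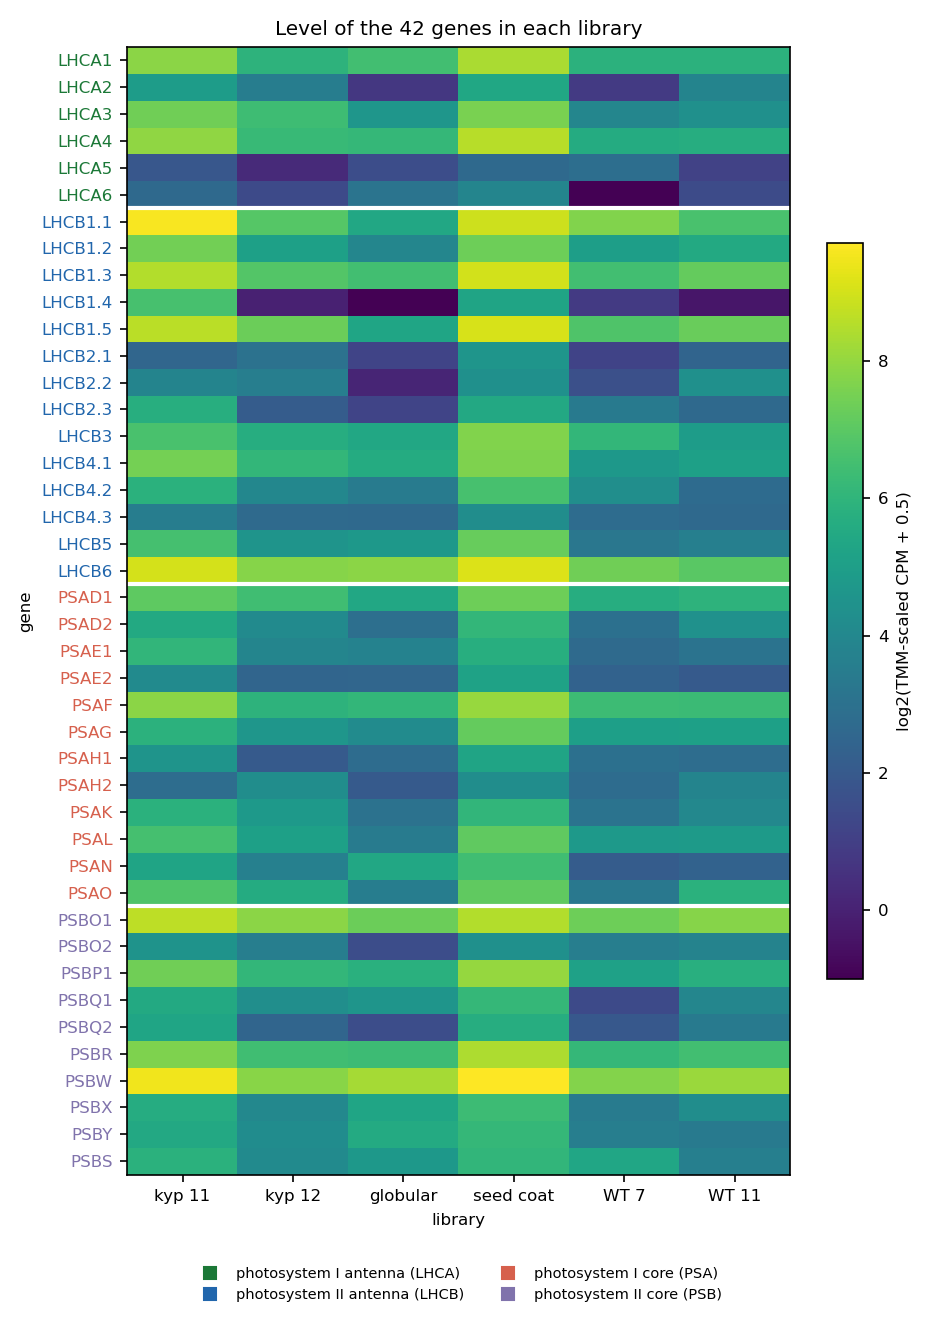
Levels of the 42 genes in the 6 libraries, as colour on a log2 scale of TMM-scaled CPM plus 0.5, with genes in rows by class and libraries in columns. The columns of kyp library 11 and the seed coat library are the brightest, and PSBW and LHCB6 are bright in every column.

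Ranked per kilobase of transcript, the genes kept a similar order in all libraries. PSBW (AT2G30570), a small subunit of photosystem II that holds its larger assemblies together, had the highest level in each: 860 and 270.2 CPM per kb in kyp libraries 11 and 12, 370 in globular embryos, 1006 in seed coat, and 255 and 324 in WT libraries 7 and 11. LHCB6, PSBO1, PSBR, LHCB1.3 and LHCB1.5 followed near the top of most libraries. LHCA5 (AT1G45474), a minor antenna protein that links photosystem I to the NDH complex, had the lowest mean level, 3.71 CPM per kb, against a median of 41.9 over the 42 genes and 514 for PSBW. As a description over the 42 genes, Spearman's rho between libraries of the level per kilobase was highest for kyp library 11 with the seed coat library, 0.936. It was 0.923 for kyp library 12 with the seed coat library and 0.922 for kyp library 12 with WT library 11. Between libraries of 1 group it was 0.864 for kyp and 0.840 for WT, and the lowest value was 0.730, for the globular library with WT library 11. The points share transcript length and base composition between libraries, so a high rho is a property of the genes as well as of the samples.

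In kyp embryos set against WT embryos, nearly all of these genes had a higher mean level, but no gene passed the test. Of the 40 genes tested, 39 had a positive log2 fold change and 1, LHCA5, a negative one; over all 15996 genes tested, 49.9% were positive. The median log2 fold change was 1.198, against -0.00 over all genes tested. None of the 40 was called higher or lower by edgeR's quasi-likelihood test at an adjusted p of 0.05, where 0.0188% of all genes were called higher and 0.0125% lower. At an unadjusted p under 0.05, 16 of the 40 were higher, against 2.91% of all genes, and none lower, against 2.19%. The DESeq2 Wald test called 2, LHCA3 and LHCB4.1, where 33 of all 15996 genes were higher and 17 lower. With 1 library left out the median was 0.27 (without kyp library 11) to 1.80 (without kyp library 12). The remaining 2 genes, LHCA6 and LHCB1.4, had too few reads for the test.

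The 2 kyp libraries did not show this alike. Summed over the 42 genes the level was 6156 and 2113 CPM in kyp libraries 11 and 12, against 1685 and 1885 CPM in WT libraries 7 and 11. Both kyp sums lay above both WT sums, by little in library 12, and kyp library 11 was 2.91-fold above its own replicate. The difference of 1.02 in mean log2 sum had an exact permutation p of 0.333 (two-sided, n = 2 each), the smallest that this design allows.

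The titles of kyp library 12 and WT library 11 carry the name prefix MC, and those of kyp library 11 and WT library 7 do not, so each prefix gives 1 library of each genotype. Without the prefix, kyp over WT had a median log2 ratio of 1.89 over the 40 tested genes, 39 of them positive and 33 more than 2-fold higher. With the prefix the median was 0.14, 24 were positive and 16 negative, and 4 were more than 2-fold higher. Over all genes tested the same ratios had medians of 0 and 0.00. Of the 40 genes, 37 were higher in kyp library 11 than in both WT libraries, where 32.4% of all genes were. In kyp library 12 that held for 19, where 32.5% of all genes were. Both kyp libraries lay above both WT libraries for 18 of the 40, against 17% of all genes, and for none of the 40 did both lie below, against 16.1% of all genes.

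**Figure D2:**
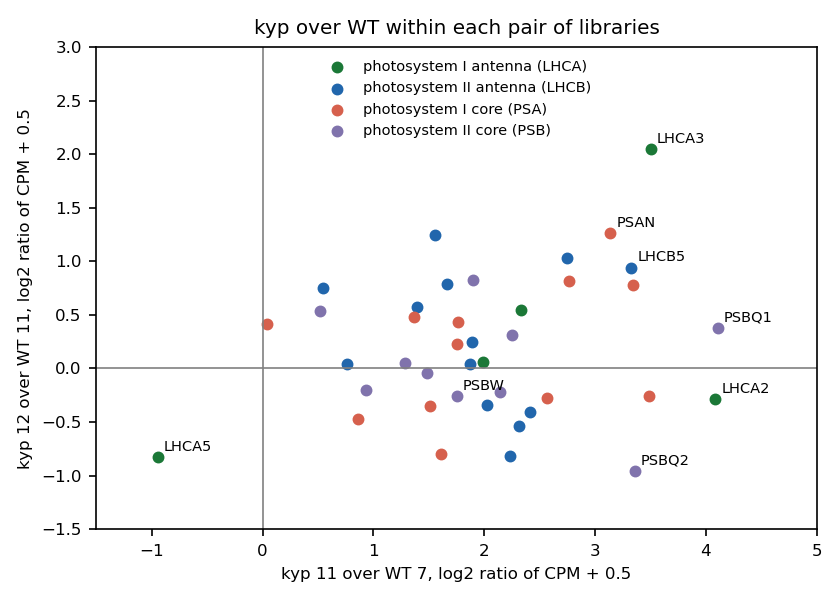
Log2 ratio of kyp over WT for the 40 tested genes in the libraries without the name prefix MC (x axis, kyp library 11 over WT library 7) and with it (y axis, kyp library 12 over WT library 11), on CPM plus 0.5. Points spread to the right of 0 on the x axis, with a median of 1.89, and lie on both sides of 0 on the y axis, with a median of 0.14; LHCA3 is far from 0 on both.

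Among the photosystem I antenna genes, LHCA3 (AT1G61520) had the largest fold change in kyp of the 40 genes tested. It had 169 and 84.5 CPM in kyp libraries 11 and 12, 24.3 in globular embryos, 188 in seed coat, and 14.5 and 20.1 in WT libraries 7 and 11. Both kyp libraries were well above both WT libraries, and this was the one gene more than 4-fold higher within both prefixes. Its log2 fold change was 2.87 (SE 0.48), with an adjusted p of 0.0938 by edgeR.

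LHCA1 and LHCA4, which pair in the antenna belt, had the highest levels of this class. LHCA1 (AT3G54890) had 233 and 60.8 CPM in kyp, 88.3 in globular embryos, 331 in seed coat, and 58.3 and 58.4 in WT. LHCA4 (AT3G47470) had 246 and 74.4 CPM in kyp, 71.1 in globular embryos, 384 in seed coat, and 48.5 and 50.9 in WT. For LHCA1 kyp library 12 was just above the WT libraries; for LHCA4 both kyp libraries were clearly higher than both. LHCA5 had 3.29 and 0.73 CPM in kyp, 2.37 in globular embryos, 5.80 in seed coat, and 6.81 and 1.68 in WT, and the kyp and WT ranges overlapped. LHCA2 and LHCA6 were low, LHCA2 at 1.18 to 41.9 CPM and LHCA6 at 0 to 14.3 CPM across the 6 libraries.

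The photosystem II antenna holds the trimeric LHCII proteins, LHCB1 to LHCB3, and the monomeric ones that link them to the core, LHCB4 to LHCB6. LHCB1.1 (AT1G29920) had 778 and 119 CPM in kyp, 43.2 in globular embryos, 486 in seed coat, and 209 and 100.4 in WT. LHCB1.5 (AT2G34420) had 393 and 157 CPM in kyp, 39.1 in globular embryos, 547 in seed coat, and 107 and 153 in WT. For LHCB1.1 the kyp and WT ranges overlapped, since WT library 7 was above kyp library 12, and for LHCB1.5 kyp library 12 was barely above WT library 11. LHCB1.1 and LHCB1.4 belonged to the 7 genes whose highest level was in kyp library 11 rather than in the seed coat.

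LHCB1.4 (AT2G34430), described here after its values were seen, differed widely between libraries. It had 149 and 2 reads in kyp libraries 11 and 12, 0 in globular embryos, 85 in seed coat, and 3 and 1 in WT libraries 7 and 11. Nearly all of its reads thus came from kyp library 11 and the seed coat library, and kyp library 12 was at the level of WT. The 0 reads in the globular library allow up to 3 reads, or 1.78 CPM, so the seed coat library was at least 21.3-fold higher.

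Within LHCB2, LHCB2.1 (AT2G05100) had 5.27 and 7.75 CPM in kyp, 1.78 in globular embryos, 23.6 in seed coat, and 1.70 and 5.03 in WT. LHCB2.2 (AT2G05070) had 13.8 and 11.4 CPM in kyp, 0.59 in globular embryos, 20.5 in seed coat, and 2.55 and 20.4 in WT. Both genes were low, and for LHCB2.2 the WT libraries lay on either side of the kyp libraries. Parts of the LHCB1 and LHCB2 transcripts are the same between loci: 10.6 to 20.5% of the 50-base words of the 5 LHCB1 transcripts, and 22.7 and 28.2% for LHCB2.1 and LHCB2.2, also occur in another locus. Reads from such stretches are not unique, so the split of reads between these paralogues is uncertain.

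Of the monomeric antenna, LHCB4.1 encodes CP29 and LHCB5 encodes CP26. LHCB4.1 (AT5G01530) had 177 and 68.5 CPM in kyp, 47.4 in globular embryos, 199.8 in seed coat, and 26.0 and 33.3 in WT. LHCB5 (AT4G10340) had 94.2 and 23.0 CPM in kyp, 25.5 in globular embryos, 152 in seed coat, and 8.94 and 11.7 in WT. In both genes the kyp and WT libraries were apart. Their log2 fold changes were 2.05 (SE 0.50) for LHCB4.1 and 2.48 (SE 0.68) for LHCB5, with edgeR adjusted p of 0.491 and 0.624.

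LHCB6 (CP24, AT1G15820) was among the most abundant of the 42 in every library. It had 526 and 220.4 CPM in kyp, 234 in globular embryos, 579 in seed coat, and 166 and 127 in WT, again with kyp above WT. Its globular level was also above both WT libraries, unlike that of the LHCB1 genes.

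Of the photosystem I core genes, PSAD1, which helps dock ferredoxin, and PSAF, which helps bind plastocyanin, are abundant examples. PSAD1 (AT4G02770) had 132 and 85.0 CPM in kyp, 42.6 in globular embryos, 165 in seed coat, and 51.1 and 60.7 in WT. PSAF (AT1G31330) had 231 and 61.3 CPM in kyp, 68.1 in globular embryos, 267 in seed coat, and 80.9 and 78.3 in WT. For PSAD1 kyp was apart from WT, whereas for PSAF kyp library 12 was the lowest of the 6.

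PSAG, PSAH2 and PSAL sit at the edge of the photosystem I core, where antenna proteins bind. PSAG (AT1G55670) had 59.3 and 24.2 CPM in kyp, 17.8 in globular embryos, 148 in seed coat, and 32.4 and 33.8 in WT. PSAH2 (AT1G52230) had 6.59 and 18.4 CPM in kyp, 3.55 in globular embryos, 18.7 in seed coat, and 6.39 and 13.7 in WT. PSAL (AT4G12800) had 92.9 and 33.4 CPM in kyp, 10.7 in globular embryos, 136 in seed coat, and 27.3 and 28.5 in WT. Only PSAL of these 3 had both kyp libraries above both WT libraries. PSAH2 and LHCB2.1 were the 2 genes of the 42 that were lower in kyp library 11 than in kyp library 12.

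PSAN (AT5G64040), a lumenal subunit near the plastocyanin site of photosystem I, was low in WT. It had 37.6 and 12.1 CPM in kyp, 42.1 in globular embryos, 86.5 in seed coat, and 3.83 and 4.75 in WT. Every other library was above both WT libraries, the globular library included. Its kyp over WT log2 fold change was 2.50 (SE 0.81), with an edgeR adjusted p of 0.781. PSAN overlaps AT5G64030 on the opposite strand, a gene with 150, 665, 202, 277, 373 and 480 reads in the order of libraries above, and the labels do not say that strand was kept. Its part in the PSAN counts was not tested.

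In the photosystem II core, PSBO1, PSBO2, PSBP1 and PSBQ1 are proteins of the oxygen-evolving complex. PSBO1 (AT5G66570) had 403 and 229.9 CPM in kyp, 160.5 in globular embryos, 357 in seed coat, and 165 and 222 in WT. PSBP1 (AT1G06680) had 168 and 67.3 CPM in kyp, 56.3 in globular embryos, 263 in seed coat, and 34.9 and 54.2 in WT. PSBO1 in kyp library 12 was close to WT library 11, while PSBP1 was higher in both kyp libraries than in either WT library.

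PSBO2 (AT3G50820) had 22.4 and 11.6 CPM in kyp, 2.37 in globular embryos, 20.5 in seed coat, and 11.5 and 13.4 in WT. PSBQ1 (AT4G21280) had 44.8 and 19.4 CPM in kyp, 23.7 in globular embryos, 70.0 in seed coat, and 2.13 and 14.8 in WT. PSBW had 724 and 227 CPM in kyp, 311 in globular embryos, 846 in seed coat, and 215 and 273 in WT. For PSBO2 and PSBW the kyp and WT ranges overlapped, and the 2 WT libraries differed widely for PSBQ1. The other photosystem II core genes, PSBQ2, PSBR, PSBX, PSBY and PSBS (the sensor of non-photochemical quenching), had log2 fold changes in kyp of 0.52 to 1.65, with edgeR adjusted p from 0.969.

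By class, the median log2 fold change was 1.395 for the photosystem I antenna (5 genes tested), 1.36 for the photosystem II antenna (13), 1.15 for the photosystem I core (12) and 1.05 for the photosystem II core (10). With untested genes included, both kyp libraries were above both WT libraries for 3 of 6, 5 of 14, 6 of 12 and 4 of 10 genes in the same order. Over all genes tested this held for 17%.

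Photosystem I genes took 25.4% (95% Clopper-Pearson interval 24.6 to 26.3) and 27.6% (26.7 to 28.6) of the reads on the 42 genes in kyp libraries 11 and 12. The share was 24.8% (23.3 to 26.4) in globular embryos, 29.4% (28.7 to 30.1) in seed coat, and 22.2% (20.9 to 23.5) and 25.4% (24.4 to 26.5) in WT libraries 7 and 11. It averaged 26.5 ± 1.53% in kyp and 23.8 ± 2.28% in WT (SD, n = 2 each; exact permutation p = 0.333, two-sided, the smallest possible). The difference of 2.73 percentage points was of the size of the spread between the WT libraries.

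Antenna genes took 57.3% (56.3 to 58.3) and 50.4% (49.4 to 51.5) of these reads in kyp libraries 11 and 12, 43.2% (41.4 to 45.0) in globular embryos, 54.4% (53.6 to 55.1) in seed coat, and 2058 of 3958 reads (50.4 to 53.6%) and 44.4% (43.2 to 45.6) in WT libraries 7 and 11. The mean was 53.9 ± 4.85% in kyp and 48.2 ± 5.39% in WT (SD, n = 2 each; exact permutation p = 0.667, two-sided). The ranges overlapped. Within each prefix the antenna share was higher in kyp, and within each genotype it was lower in the library with the prefix.

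**Figure D3:**
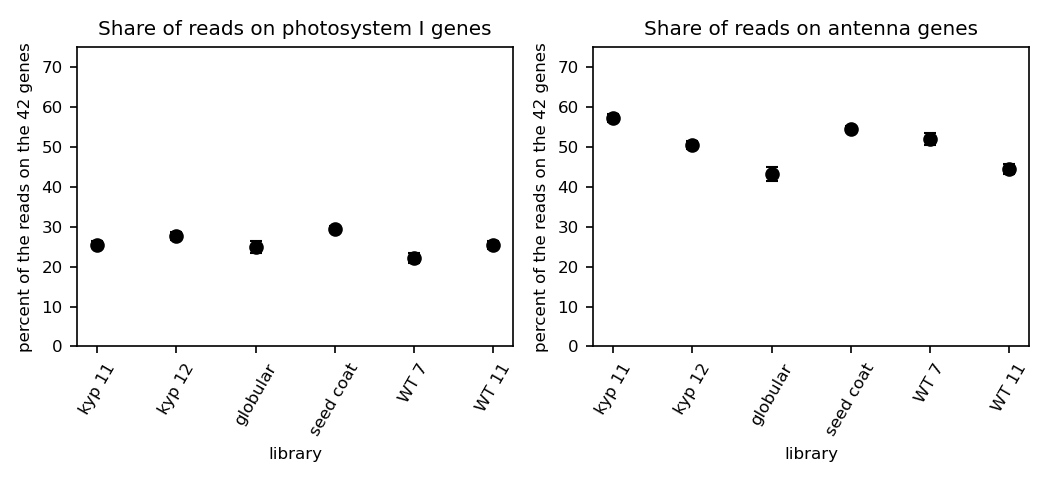
Percent of the reads on the 42 genes that fell on photosystem I genes (left) and on antenna genes (right) in each library, with 95% Clopper-Pearson intervals that cover counting error. The photosystem I share lies between 22.2 and 29.4% and is highest in the seed coat library, and the antenna share lies between 43.2 and 57.3% and is lowest in the globular library.

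The share of LHCA reads within photosystem I was examined after its values were seen. LHCA reads were 43.9 and 40.1% of all photosystem I reads in kyp libraries 11 and 12, 45.3% in globular embryos, 44.2% in seed coat, and 34.6 and 30.7% in WT libraries 7 and 11. Both WT libraries were below the other 4, and the mean was 41.97 ± 2.70% in kyp and 32.7 ± 2.77% in WT (SD, n = 2 each; exact permutation p = 0.333, two-sided, the smallest possible). With LHCA3 left out, an alternative also chosen after seeing the data, the share was 37.1 and 29.9% in kyp libraries 11 and 12, 42.1% in globular embryos, 38.9% in seed coat, and 32.0 and 27.7% in WT libraries 7 and 11. The kyp and WT ranges then overlapped (exact permutation p = 0.667, n = 2 each), and the difference was 3.66 percentage points, against 9.30 with LHCA3. Summed LHCA levels were 687 and 234 CPM in kyp and 129 and 147 CPM in WT, a mean log2 difference of 1.54 with an exact permutation p of 0.333 (n = 2 each). LHCB reads were 61.9 and 54.4% of photosystem II reads in kyp, 42.5% in globular embryos, 58.6% in seed coat, and 56.9 and 49.0% in WT, where kyp and WT overlapped.

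**Figure D4:**
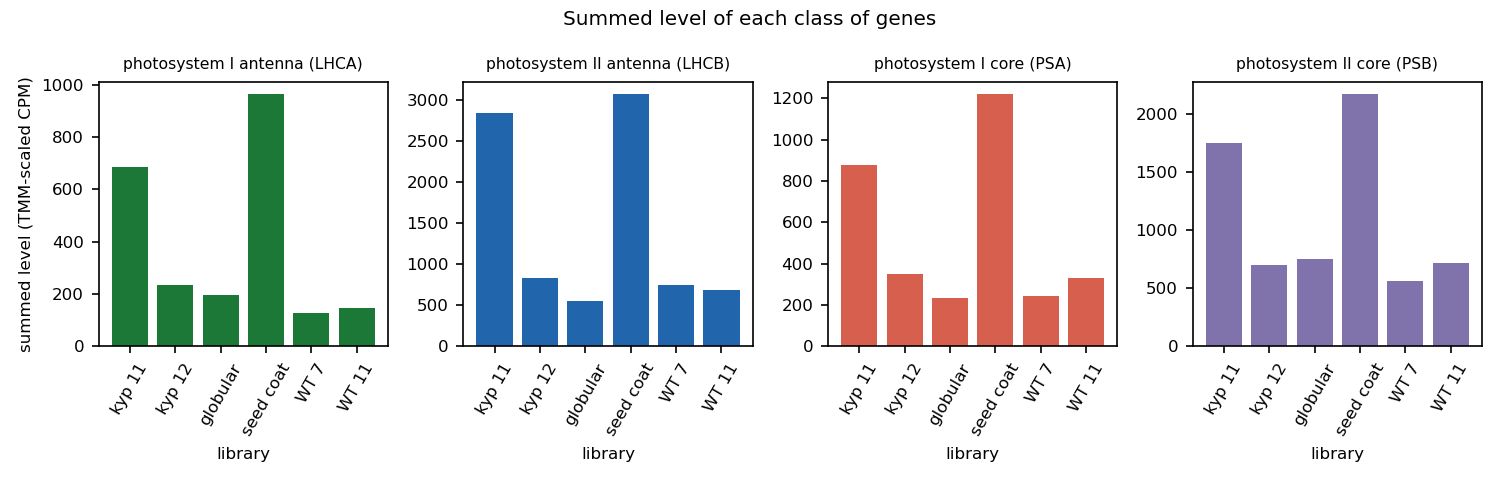
Summed TMM-scaled CPM of the 4 classes of genes in each library, each panel with its own axis from 0. In every class the seed coat library is highest and kyp library 11 second, and for LHCA the sums of 129 and 147 CPM in the WT libraries are the lowest of the 6.

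Genes that encode the same subunit did not divide their reads alike in all libraries. PSAH1 took 77.8% (62.9 to 88.8) of the reads on PSAH1 and PSAH2 in kyp library 11, but 16.5% (9.53 to 25.7) in kyp library 12. It took 64.7% in globular embryos, 66.9% in seed coat, and 53.1 and 32.9% in WT libraries 7 and 11. The libraries of 1 genotype thus differed more than the genotypes, and both libraries with the prefix had the lower share. PSBO1 took 93.5 to 98.5% of the reads on PSBO1 and PSBO2 in all 6 libraries. PSAD1 took 71.0 to 87.6% of the reads on PSAD1 and PSAD2.

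Markers of other tissues were summed in the same libraries. Over 7 leaf mesophyll markers the level was 308 and 122 CPM in kyp libraries 11 and 12, 96.0 in globular embryos, 248 in seed coat, and 135 and 98.7 in WT libraries 7 and 11, with PGLP1 at 0 in all of them. The 4 pollen markers summed to 55.4 and 36.8 CPM in kyp, 5.92 in globular embryos, 62.0 in seed coat, and 0.85 and 8.67 in WT, with HTR10 at 0 outside the seed coat library. The 9 endosperm markers summed to 117 and 58.4 CPM in kyp, 31.4 in globular embryos, 92.8 in seed coat, and 57.9 and 56.5 in WT; IKU2 was at 0 in all but WT library 7. Mesophyll, pollen and endosperm sums were thus high in kyp library 11 and in the seed coat library, as the photosystem sums were. In kyp library 11 all 3 sums were above both WT libraries. In kyp library 12 the mesophyll sum lay between those of the WT libraries. The endosperm sum there was above both WT libraries but within 1 CPM of WT library 7, and the pollen sum was above both.

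The 13 seed coat markers summed to 5958 and 5966 CPM in kyp and 7775 and 4917 CPM in WT, and the 6 embryo markers to 505 and 520 CPM in kyp and 626 and 572 CPM in WT. ATML1, an epidermal regulator that the seed coat library held at 326 CPM, made up most of the embryo sum, with 368 and 411 CPM in kyp and 571 and 453 CPM in WT. The other 5 embryo markers had positive log2 fold changes in kyp, none called by edgeR, and the median of the 6 was 0.55. The embryo median was 1.12 within the pair without the prefix (kyp 11 over WT 7) and -0.02 within the pair with it (kyp 12 over WT 11). The part of these tissues in the photosystem levels was not tested. The median share of transcript length covered by reads over the 42 genes was 72.7 and 63.1% in kyp, 45.3% in globular embryos, 80.4% in seed coat, and 45.8 and 55.7% in WT.

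In the seed coat, all 42 genes had a positive fold change over WT embryos, as 49.5% of all genes tested did, and 6 passed the test. LHCA3, LHCA4, LHCB4.1, LHCB5, PSAN and PSBP1 were higher, where 0.158% of all 17706 genes tested were, and none of the 42 was lower, where 0.627% were. At an unadjusted p under 0.05, 35 were higher, against 3.39% of all genes, and none lower, against 6.13%. The median log2 fold change was 2.37, against 0 over all genes tested. The seed coat has 1 library, whose spread the fit takes to equal that of the 2-4 cell pairs (residual degrees of freedom: 2).

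The largest of the 6 was PSAN, at 4.31 on the log2 scale (SE 0.73, adjusted p by edgeR = 0.00814). LHCB5 followed with 3.86 (SE 0.68, edgeR adjusted p = 0.0100) and LHCA3 with 3.43 (SE 0.53, edgeR adjusted p = 0.00505). LHCA4 had 2.95, LHCB4.1 2.75 and PSBP1 2.56, with edgeR adjusted p of 0.0163, 0.0210 and 0.0317. Thus 4 of the 6 are antenna genes, and each photosystem has 3. DESeq2 called 13 of the 42 higher, where 47 of all 17706 genes were. By edgeR with no filter on low counts 27 were called higher, where 145 of all 23132 genes were. With a library left out, the median log2 fold change over the 42 was 2.23 to 2.51. PSBP1 was not called without WT library 7 (edgeR adjusted p = 0.0644).

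The seed coat library was the highest of the 6 for 34 of the 42 genes: 5 of 6 photosystem I antenna, 10 of 14 photosystem II antenna, 11 of 12 photosystem I core and 8 of 10 photosystem II core genes. It lay above both WT libraries for 41, with LHCA5 the exception. Neither count was made over all genes. Medians by class were 2.73 and 2.09 for the photosystem I and II antenna and 2.26 and 2.28 for the photosystem I and II core. The smallest log2 fold changes were those of LHCA5, 0.47, PSBO2, 0.72, LHCB2.2, 0.82, PSBO1, 0.89, and PSAH2, 0.89, none of which passed the test. The summed level was 7425 CPM, or 4.16-fold the arithmetic mean of the WT sums. The 13 seed coat markers had a median log2 fold change of 0.21 and none called higher, and KLU, a cytochrome P450 of the integuments, was lower by edgeR (log2 fold change -4.78, adjusted p = 0.000518).

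**Figure D5:**
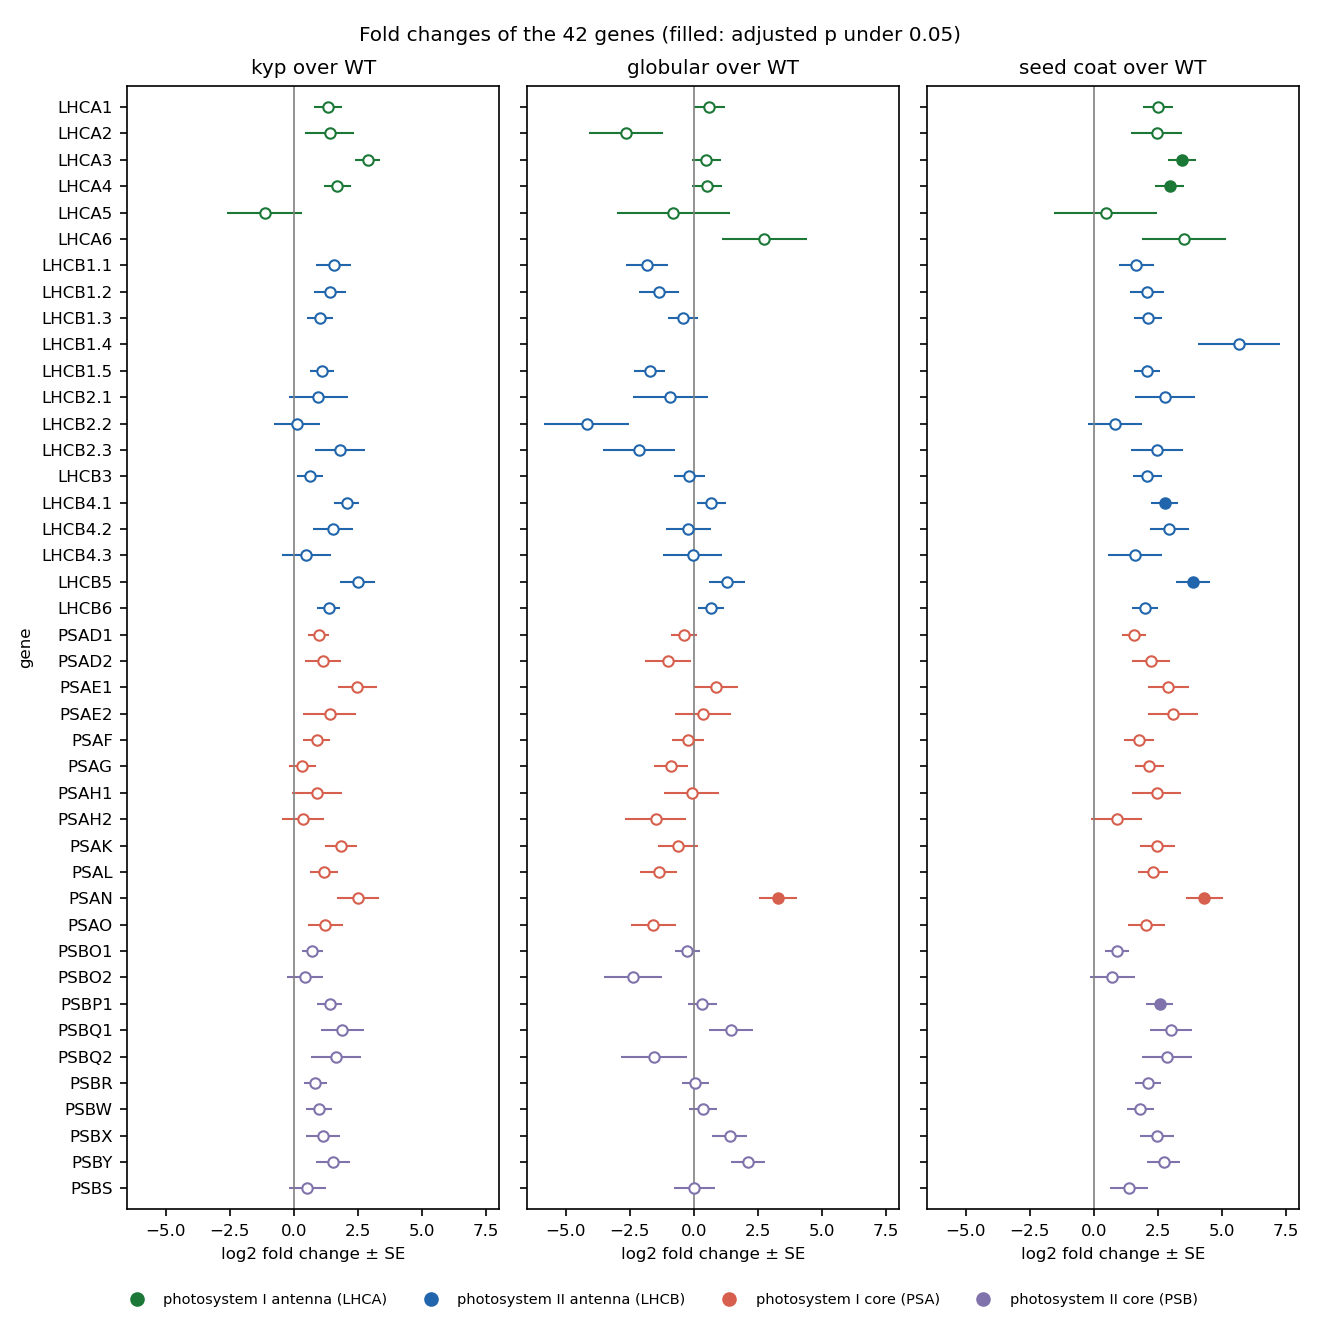
Log2 fold change with its standard error for each gene (rows, coloured by class) in kyp, globular and seed coat libraries over the WT libraries, on 1 common axis, with filled points for an edgeR adjusted p under 0.05. No kyp point, 1 globular point and 6 seed coat points are filled; LHCA6 and LHCB1.4 in kyp and LHCB1.4 in the globular library have no point. The 3 panels share the WT libraries.

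In globular embryos the genes did not move together, and 1 passed the test. PSAN was higher than in WT embryos, at 3.27 on the log2 scale (SE 0.73, adjusted p by edgeR = 0.0375), where 0.384% of all genes tested were called higher. None of the 42 was called lower, where 0.774% of all genes were; at an unadjusted p under 0.05, 2 were higher and 4 lower, against 4.3% and 6.96% of all genes. Of the 42, 17 had a positive fold change, where 44.6% of all genes did, and 25 a negative one, LHCB1.4 with no globular reads among them; the median log2 fold change was -0.22, against -0.12 over all genes tested. With the prefix as a block in the fit, PSAN had 2.79 and an adjusted p of 0.0648. This comparison shares its WT libraries with the kyp and seed coat comparisons, and the globular stage too has 1 library, treated like that of the seed coat.

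Fold changes of both signs occurred among the antenna and core genes. The 3 LHCB2 genes and the 4 LHCB1 genes with globular reads all had negative log2 fold changes, from -0.42 (LHCB1.3) to -4.19 (LHCB2.2), none of them called. LHCB1.5 had the lowest edgeR adjusted p of these, 0.230, at a log2 fold change of -1.73. LHCB5 had 1.29, LHCB6 0.68 and LHCB4.1 0.67, while LHCB4.2 and LHCB4.3 had -0.22 and -0.05. Of the photosystem II core, 7 genes were positive and 3 negative, with PSBX at 1.39 and PSBY at 2.12 but PSBO2 at -2.37 and PSBQ2 at -1.54. None of these was called (edgeR adjusted p from 0.162), and a difference between families was not tested. The globular library was above both WT libraries for 15 genes and below both for 19. Over all genes this was not counted for the globular library. Kyp libraries 11 and 12 lay above both WT libraries for 32.4 and 32.5% of the 15996 genes tested in kyp. Those shares are of other libraries and do not serve as a background for the globular counts.

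LHCB1 genes took a smaller part of the photosystem II antenna in the globular library. They held 63.5 and 51.1% of LHCB reads in kyp libraries 11 and 12, 33.3% (30.3 to 36.4) in globular embryos, 56.5% in seed coat, and 58.7 and 64.4% in WT libraries 7 and 11. The globular value was the lowest of the 6, and its interval did not reach that of any other library. With 1 globular library, this compares libraries and not stages.

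Between seed coat and globular embryos, which share no WT library, every one of the 42 genes had a positive fold change, as 53% of all genes tested did. By edgeR, 4 passed the test, LHCA3, LHCB1.5, PSAG and PSAL, where 0.87% of all genes tested were higher, and none was lower, where 0.909% were. At an unadjusted p under 0.05, 30 were higher and none lower, against 7.16% and 6.66% of all genes. Their log2 fold changes were 2.95 (LHCA3, adjusted p = 0.0354), 3.81 (LHCB1.5, adjusted p = 0.00986), 3.05 (PSAG, adjusted p = 0.0491) and 3.68 (PSAL, adjusted p = 0.0292). The median over the 42 was 2.48, against 0.10 over all genes tested; it is 2.48 also with LHCB1.4 at its lower bound. PSAN, called in the globular and seed coat comparisons with WT, had 1.04 here and did not pass (adjusted p = 0.655). By class the medians were 2.17 and 3.31 for the photosystem I and II antenna and 2.63 and 1.51 for the photosystem I and II core. Each group has 1 library, and the spread is that of the 2-4 cell pairs. DESeq2 called 10 of the 42 higher, where 289 of all 17706 genes were. By edgeR 2 were called with isoforms summed, where 103 of all 17913 genes were higher. With no filter 23 were called (405 of all 23132 genes), and 24 with the prefix as a block (411 of all 17706). With a library left out, the median over the 42 was 2.48 to 2.49.

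Other genes of photosynthesis were counted for comparison, with no gene called in kyp in any of these lists. For Rubisco and the Calvin cycle, 16 of 17 tested genes had positive log2 fold changes in kyp (median 1.32). For electron transport and ATP synthase 10 of 13 did (median 0.75), and for chlorophyll synthesis 11 of 12 (median 0.64). Within the prefixes, kyp library 11 over WT library 7 gave medians of 1.78, 1.29 and 0.83 for these lists in that order, and kyp library 12 over WT library 11 gave -0.06, 0.04 and 0.73. In that second pair 8 of 17 Rubisco and Calvin cycle genes and 8 of 14 electron transport genes were higher in kyp. Of the chlorophyll synthesis genes 9 of 13 were.

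The most abundant genes of these lists were as follows. RBCS1A, a small subunit of Rubisco, had 814 and 433 CPM in kyp, 409 in globular embryos, 681 in seed coat, and 227 and 389 in WT. FD2, the main leaf ferredoxin, had 177 and 77.5 CPM in kyp, 85.3 in globular embryos, 171 in seed coat, and 68.6 and 82.5 in WT. Both kyp libraries were above both WT libraries for RBCS1A and not for FD2. PETE2, the main plastocyanin, had 331 and 155 CPM in kyp and 105 and 147 CPM in WT, with both kyp libraries above both WT libraries. TKL1, a transketolase, had 472 and 367 CPM in kyp and 448 and 398 CPM in WT, with overlapping ranges.

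Genes for proteins that resemble the antenna or insert it had smaller values. LHC-like stress and assembly proteins had 2 positive and 6 negative fold changes in kyp (median -0.44), and ELIP2, an early light-induced protein, had 51.4 and 9.45 CPM in kyp and 65.1 and 15.1 CPM in WT, higher in both libraries without the prefix. LIL3.1, which anchors enzymes of chlorophyll synthesis, had 17.8 and 36.3 CPM in kyp and 18.3 and 10.6 CPM in WT. The import and state transition list had 5 positive and 2 negative (median 0.21). CPSRP43, which carries antenna proteins to the membrane, had 89.6 and 55.2 CPM in kyp, 148 CPM in the seed coat library and 40.5 and 30.2 CPM in WT, with kyp above WT. Its partner CPSRP54 had 91.6 and 73.6 CPM in kyp and 79.2 and 64.0 CPM in WT, with overlapping ranges. The other nuclear photosystem genes, PSB28 and CURT1B among them, had 3 positive and 1 negative of 4 tested (median 0.80). PSB28 had 39.5 and 52.1 CPM in kyp and 18.7 and 33.0 CPM in WT, and CURT1B had 35.6 and 19.4 CPM in kyp and 42.2 and 14.3 CPM in WT.

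In the seed coat 2 chlorophyll synthesis genes passed the test against WT. PORB, which reduces protochlorophyllide in light, had 355 CPM in the seed coat library and 23.8 and 42.5 CPM in WT (log2 fold change 3.41, edgeR adjusted p = 0.00814). CRD1, a subunit of the cyclase earlier in the pathway, had 158 CPM in the seed coat library and 28.1 and 26.6 CPM in WT (log2 fold change 2.54, edgeR adjusted p = 0.0203). PORB was also higher in the seed coat library than in the globular library, at 14.2 CPM (log2 fold change 4.64, edgeR adjusted p = 0.00796). No gene was called against WT in the Rubisco and Calvin cycle list (median 1.58, 16 of 17 positive) or the electron transport list (median 1.28, 13 of 14 positive).

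Among regulators of photosynthesis genes, GUN1, a plastid protein of retrograde signalling, was even across libraries, at 162 and 172 CPM in kyp, 162 in globular embryos, 144 in seed coat, and 189 and 129 in WT. HY5, a light-response transcription factor, had 13.8 and 4.84 CPM in kyp, 20.7 in globular embryos, 5.80 in seed coat, and 18.7 and 11.2 in WT, with overlapping ranges. GLK1 and GLK2, transcription factors that activate antenna genes, are added after their values were seen. GLK1 had 4 reads in the seed coat library and none in the other 5. GLK2 had 25.0 and 0.97 CPM in kyp, 0.59 in globular embryos, 15.2 in seed coat, and 2.98 and 10.6 in WT.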

How the data were processed

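Per the labels' protocols, RNA isolated by PicoPure was amplified with the WT-Ovation Pico system, sheared and ligated to SOLiD adaptors; no molecular identifiers are mentioned, so reads are not independent molecules, and strand is not stated. The deposited files hold unique read counts per transcript, per the file headers. In both libraries with the name prefix MC, 10.8 and 12.7% of transcripts hold a fractional read of 0.5, so these deposited numbers are taken as estimated counts and were rounded upward. Per the file headers the authors also deposited read coverage per transcript, used here only as the covered share of transcript length. The aligner, genome build and annotation are not given in the sources used here, so no coordinates or sequences are printed. RefSeq TAIR10.1 served for shared 50-base words and antisense overlaps, and 14 of the 42 genes overlap an antisense gene that has counts (LHCA4, LHCA5, LHCB1.3, LHCB1.5, LHCB2.3, LHCB3, LHCB6, PSAE1, PSAE2, PSAH1, PSAH2, PSAN, PSBP1 and PSBR), which makes their values uncertain.

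Of the transcripts, 37813 were present in all 6 libraries and 5 were left out. All genes were tested with edgeR 4.0.16 in R 4.3.3 (quasi-likelihood F test, TMM, filterByExpr at a minimum count of 10, Benjamini-Hochberg adjustment over all genes tested, threshold 0.05). For kyp against WT the fit held the 4 libraries of 2-4 cell embryos (biological coefficient of variation 0.475), and the others used all 6 libraries in 4 groups (0.505). Levels are CPM of the TMM-scaled totals, and pair ratios use CPM plus 0.5. Standard errors are the log2 fold change divided by the root of F. The tests were checked on simulated counts for the sign and median size of large planted changes only. Changes as small as the kyp median were not simulated. Alternatives were DESeq2 1.42.0 (Wald test and size factors), no filter, summed isoforms, thinned depth, the name prefix as a block and each library left out.

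The genes and the comparison lists were chosen with earlier results of these data known. Genes given in every library are those called in any comparison with at least 20 mean reads and, per class, those with the highest, second highest and lowest tested level and the largest and smallest kyp fold change. From the other pathway lists the genes past the threshold are given, otherwise the 2 with the highest level; marker lists are given as sums. Of 118 loci in the lists, 8, all plastid-encoded, had no counts.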

Additional observations from a re-analysis of the deposited data

How the results depend on the processing

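No paired analysis was possible because the title numbers of the kyp libraries (11 and 12) and the WT libraries (7 and 11) share only the number 11; the name prefix, which is not a replicate number, was used as a block in its place. In kyp against WT, edgeR called 0 of the 42 genes, where it called 3 of all 15996 genes higher and 2 lower. With no filter on low counts 6 were called, where 75 of all 22115 genes were higher and 31 lower. DESeq2 called 2, where 33 of all 15996 were higher and 17 lower. The name prefix as a block gave 1, where 10 of all 15996 were higher and 8 lower. All 6 libraries in the fit gave 1, where 10 of all 17706 were higher and 4 lower. The median log2 fold change was 0.27 to 1.80 with a library left out, 0.27 being that without kyp library 11. LHCA3 became significant under each of these settings that made a call, at adjusted p of 2.56e-06 with no filter, 5.68e-05 by DESeq2, 0.0251 with the block and 0.0256 with all 6 libraries. Signs turned with a library left out for LHCB1.1 (-0.38 to 2.34), PSAF (-0.38 to 1.55), PSAG (-0.45 to 0.85), PSBW (-0.10 to 1.58) and PSBO2 (-0.10 to 0.85), in each case without kyp library 11. The same held for PSAH2 (-0.60 to 1.00), without kyp library 12 or WT library 7, and LHCB2.2 (-0.69 to 2.28), without kyp library 11 or WT library 7. The difference in photosystem I share was 1.12 to 4.34 percentage points, in antenna share 1.86 to 9.48, and in log2 summed level 0.25 to 1.79. The difference in LHCA share of photosystem I was 3.66 percentage points with LHCA3 left out, against 9.30, an alternative chosen after seeing the data.

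In globular against WT, 2 genes were called with no filter (1 higher, 1 lower), where 178 of all 23132 genes were higher and 384 lower. With the block 2 were called (both lower), where 99 of all 17706 genes were higher and 245 lower. With a library left out, the median log2 fold change of the photosystem and antenna genes was -0.23 to -0.05. In seed coat against WT, 27 were called with no filter, where 145 of all 23132 genes were higher and 334 lower. DESeq2 called 13, where 47 of all 17706 genes were higher and 396 lower. The median log2 fold change was 2.23 to 2.51 with a library left out. In seed coat against globular, 23 were called with no filter, 10 by DESeq2, 2 with isoforms summed, 24 with the block and 16 to 23 with a library left out, 16 without kyp library 11 or WT library 11, 23 without kyp library 12 and 20 without WT library 7. The cause of these changes was not tested. Single calls were lost with isoforms summed for LHCB4.1, PSBP1, PSAG and PSAL, with thinned depth for PSBP1 and PSAG, with DESeq2 size factors for PSAG, and with the block for PSAN in globular embryos; no called gene changed sign in the alternatives run. With 1 globular and 1 seed coat library, and member reads between 2931 and 16648 per library, genes below a few CPM such as LHCA5, LHCA6 and LHCB2.1 have wide errors.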
